A study of Mus musculus with 9 samples.

Results

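The RNA of 9 genes of antigen presentation was described in the hearts of mice from a study of metastatic colorectal cancer. The members were taken by gene symbol from the deposited count table, which listed 13890 genes, and all 9 were present and passed the filter on low counts. They fall into 5 genes of the class I route, which are B2m, H2-D1, H2-K1, Tap1 and Tap2, and 4 genes of the class II route, which are H2-Aa, H2-Ab1, H2-Eb1 and Cd74. Hearts of 9 male NSG mice, 3 in each of 3 groups, were measured by mRNA sequencing. The mice were 8 weeks old at surgery and hearts were taken about 3 weeks later. Sham animals (S, animals 2, 3 and 5) had saline put into the spleen. The animals labelled T (11, 12 and 15) are described as hosts of HCT116, a human colorectal cancer line, placed in the spleen so that it spreads to the liver. The animals labelled A + T (20, 21 and 22) are described as such hosts given ACVR2B/Fc once a week, a soluble decoy receptor that binds activins, myostatin and related ligands. Per the study's methods, S and T received weekly saline in place of the decoy receptor. All 9 mice carried the scid mutation and lacked the common gamma chain of the interleukin receptors on the NOD background, and so lack mature T, B and NK cells, the usual readers of presented antigen, but keep myeloid cells. The question put to these genes was whether their heart RNA differed between the groups, and whether the members moved together.

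Nucleated cells show peptides of their own proteins on class I molecules. These consist of a heavy chain, encoded by H2-K1 or H2-D1, and the light chain beta-2-microglobulin, encoded by B2m, and the peptides are cut by proteasomes and pumped into the endoplasmic reticulum by the transporter made of Tap1 and Tap2. Class II molecules show peptides taken up from outside and are found mainly on dendritic cells, macrophages and B cells. H2-Aa and H2-Ab1 encode the alpha and beta chains of the I-A molecule, H2-Eb1 encodes the beta chain of I-E, and Cd74 encodes the invariant chain, which blocks the groove until the molecule reaches the endosome. Interferon gamma raises both routes, class I through Irf1 and Nlrc5, and class II through Ciita, a coactivator that binds no DNA itself but sits on factors bound to the X and Y boxes of class II promoters. In the heart, class II molecules are carried mainly by resident and recruited myeloid cells and class I molecules by most cell types, endothelium included.

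On the GRCm38 assembly (mm10), with the GENCODE M21 annotation, 7 of the 9 members lie within 1271483 bases of chromosome 17. Their order is H2-K1 (33996017 to 34000347, minus strand), Tap1 (34187553 to 34197225, plus), Tap2 (34203527 to 34216321, plus), H2-Ab1 (34257689 to 34269419, plus), H2-Aa (34282744 to 34287823, minus), H2-Eb1 (34305867 to 34316674, plus) and H2-D1 (35262730 to 35267499, plus). B2m lies on the plus strand of chromosome 2, from 122147686 to 122153083, and Cd74 on a chromosome of its own. The counts are of reads on exons of these genes. RefSeq windows from 250 bases before to 50 bases after a transcription start (GRCm38.p6) were at hand for 6 of the 9 members. Those of H2-Eb1, H2-Aa, H2-D1, H2-K1 and B2m are printed 5′ to 3′ because they show what the class II promoters share with the class I promoters. Capitals mark matches on either strand to 4 motifs. These are the X box (CTAG, any base, AAC, any base, GATG), the Y box (CTGATTGG, or CCAATCAG where it lies on the other strand), the kappaB site (GGGA, any base, T, any base, CCC) and the interferon-stimulated response element, ISRE (GAAA, any 2 bases, GAAA). A shorter X box core (AGCAAC, any base, GATG), which overlaps the X box, the core of the Y box (ATTGG) and the gamma-activated site (TTCNNNGAA) were also searched on both strands and are not capitalised.

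The H2-Eb1 window is chr17:34305617-34305916, that of H2-Aa chr17:34287774-34288073 and that of H2-D1 chr17:35262844-35263143. The H2-K1 window is the one at chr17:34000284-34000583, of 2 listed, and that of B2m is chr2:122147437-122147736.
H2-Eb1 promoter: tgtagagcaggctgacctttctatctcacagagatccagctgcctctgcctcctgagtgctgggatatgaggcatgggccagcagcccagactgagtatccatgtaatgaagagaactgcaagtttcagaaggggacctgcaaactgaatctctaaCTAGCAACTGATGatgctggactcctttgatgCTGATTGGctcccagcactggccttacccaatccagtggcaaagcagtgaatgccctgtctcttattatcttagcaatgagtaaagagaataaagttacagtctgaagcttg
H2-Aa promoter: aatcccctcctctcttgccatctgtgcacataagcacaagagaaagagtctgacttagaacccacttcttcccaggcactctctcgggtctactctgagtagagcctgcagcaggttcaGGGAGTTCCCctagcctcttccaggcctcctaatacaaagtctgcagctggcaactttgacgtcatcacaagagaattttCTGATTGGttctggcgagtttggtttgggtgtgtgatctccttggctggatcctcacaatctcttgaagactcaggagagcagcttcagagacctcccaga
H2-D1 promoter: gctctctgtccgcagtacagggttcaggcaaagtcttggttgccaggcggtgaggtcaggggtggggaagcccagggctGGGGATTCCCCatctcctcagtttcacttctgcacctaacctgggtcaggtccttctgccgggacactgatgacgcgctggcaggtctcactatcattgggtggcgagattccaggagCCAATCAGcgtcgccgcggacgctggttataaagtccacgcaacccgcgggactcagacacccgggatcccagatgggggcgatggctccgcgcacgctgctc
H2-K1 promoter: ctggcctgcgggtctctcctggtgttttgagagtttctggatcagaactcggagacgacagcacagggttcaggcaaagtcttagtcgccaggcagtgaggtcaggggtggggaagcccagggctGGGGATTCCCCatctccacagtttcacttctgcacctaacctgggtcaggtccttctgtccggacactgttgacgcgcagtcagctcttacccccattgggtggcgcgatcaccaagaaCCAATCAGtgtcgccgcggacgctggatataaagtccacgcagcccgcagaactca
B2m promoter: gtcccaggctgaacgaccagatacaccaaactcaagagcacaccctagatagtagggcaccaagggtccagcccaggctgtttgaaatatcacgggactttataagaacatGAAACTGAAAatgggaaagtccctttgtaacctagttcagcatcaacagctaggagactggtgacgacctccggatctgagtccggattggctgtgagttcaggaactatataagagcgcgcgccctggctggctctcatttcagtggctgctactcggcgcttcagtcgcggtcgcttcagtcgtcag

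The H2-Eb1 window held an X box from 94 to 82 bases before the start and a Y box from 62 to 55 bases before it. The X box letters were present in 0.0307% of the 32544 windows of this length in the RefSeq table and the Y box letters in 4.07%. H2-Aa held a Y box that began 51 bases before the start, and H2-D1 held one on the other strand that began 53 bases before the start. H2-K1 held the Y box at its annotated start, and Tap1 held one that began 222 bases before the start. The kappaB letters, in 1.10% of windows, were found in H2-K1, H2-D1 and H2-Aa, where the match on each strand of H2-K1 and H2-D1 overlaps. The ISRE letters, in 3.45% of windows, were found in B2m alone of the 6 members with a window. The ATTGG letters were in all 6 and in 37.4% of windows, the X box core in H2-Eb1 and in 0.0707% of windows, and the gamma-activated site in none of the 6 and in 8.33% of windows. These are matches of letters, not bound sites. Only exact letters were searched, so that a variant of a motif would have been missed and a missing match does not show a missing site. The Tap1 window shares 275 bases with that of Psmb9, a proteasome subunit gene read in the opposite direction.

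The labels give each library the number of its own animal, and the P-values measure the spread between these animals. The libraries held between 12392222 and 19732471 counts on genes, and 3 counts correspond to between 0.152 and 0.281 CPM. CPM values here are counts brought to a common library size and corrected by TMM, a factor for library composition. Between 4.57% and 19.6% of a library fell on Rn45s, a precursor of ribosomal RNA. The heart muscle marker Myh6 was abundant in every library, between 13196 and 27271 CPM. Log2 fold changes were set beside the study's own list of changed genes, of which 378 were tested here. T vs. S as labelled matched the column for ACVR2B/Fc vs. sham (Pearson r = 0.9998) and not the one for HCT116 vs. sham (0.2965). A + T vs. T did not match the column for treated against untreated hosts (0.0882). A + T vs. S matched no column closely, the highest value being 0.6087, with HCT116 vs. sham. Each group is called by its label throughout, and directions hold for the libraries so labelled. Which animals the libraries labelled T came from cannot be told from the files. A single A + T library, of animal 22, also held lung and airway RNA. It had 17508 counts of Scgb1a1, an airway secretory protein, 3230 of the surfactant protein gene Sftpb and 2809 of Ager, a marker of alveolar lining, whereas no other library had over 10 counts of Sftpb or Ager. The library of T animal 12 had 1345 counts of Scgb1a1. Results are therefore given with and without animal 22, and with both libraries left out, an alternative added after the data had been seen.

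Levels were compared between the members on the deposited log2 scale, on which a gene is also divided by its length. B2m was the highest, with a mean of 7.38 ± 0.24 (SD over the 9 libraries), above 97.6% of the listed genes. H2-D1 followed at 4.72 ± 0.31, H2-K1 at 4.36 ± 0.29, Cd74 at 3.78 ± 0.62, Tap2 at 3.39 ± 0.12, H2-Aa at 3.22 ± 0.72, H2-Ab1 at 2.40 ± 0.72, H2-Eb1 at 1.97 ± 0.61 and Tap1 at 1.29 ± 0.34. B2m stood above H2-D1 in every library, whereas for the other 7 neighbouring pairs in this order the ranges over the 9 libraries overlapped. The light chain shared by all class I molecules was thus the highest member on this scale, and the transporter subunit Tap1 the lowest. The class II members varied most between libraries and Tap2 least. The MHC haplotype of NOD mice differs from that of the reference genome, which all groups share and which limits levels between genes more than differences between groups.

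Reads of 75 bases can fit near-identical MHC genes. In the H2-D1 transcript, 140 of 2028 windows of 75 bases (6.90%) also occur in another gene, most of them in H2-Q1, and in H2-K1 24 of 1545 (1.55%) also occur in H2-D1. No such window was found for the other 7 members. Only uniquely mapped reads were counted, so the small shared stretches of H2-D1 and H2-K1 are uncertain.

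**Figure D1:**
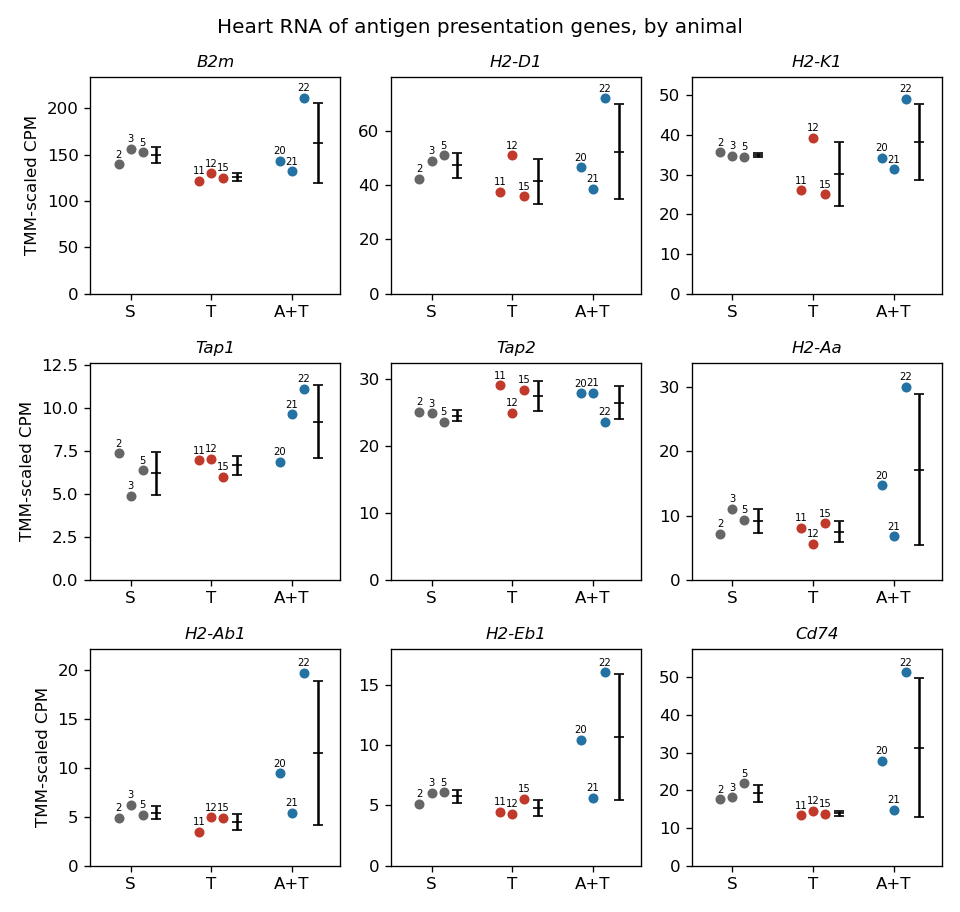
Level of each of the 9 members in each heart, in TMM-scaled CPM (y axis, from 0), for S, T and A + T (x axis), with each point labelled by its animal and the bar giving the mean ± SD of 3 animals. Animals 22 and 20 of A + T are the 2 highest of the 9 hearts for H2-Aa, H2-Ab1, H2-Eb1 and Cd74, while animal 21 lies near S and T.

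Among the class I genes the groups lay close together. B2m, the light chain, measured 139.7, 156 and 153 CPM in S, 122, 130.0 and 125 in T, and 143, 132 and 212 in A + T. All T libraries lay below all S and all A + T libraries, and A + T overlapped S. H2-D1, a heavy chain, measured 42.1, 48.9 and 50.9 CPM in S, 37.5, 50.9 and 35.7 in T, and 46.4, 38.6 and 71.8 in A + T. H2-K1, the other heavy chain, was tight in S at 35.6, 34.7 and 34.6 CPM, and wider in T at 26.1, 39.3 and 25.1 and in A + T at 34.2, 31.4 and 49.2. The groups of both heavy chains overlapped, with T animal 12 highest in T and animal 22 highest of all hearts.

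The 2 subunits of the peptide transporter did not vary alike. Tap1 measured 7.35, 4.87 and 6.36 CPM in S, 6.94, 7.01 and 5.99 in T, and 6.86, 9.62 and 11.1 in A + T. Animals 21 and 22 were the highest of the 9 hearts. Tap2 measured 25.1, 24.9 and 23.6 CPM in S, 29.1, 25 and 28.4 in T, and 27.9, 28.0 and 23.6 in A + T, so that animal 22, the highest heart for Tap1, was at the low end for Tap2. The ratio of Tap2 to Tap1 counts ran from 2.13 in animal 22 to 5.1 in animal 3 of S.

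The class II genes were uneven within A + T. H2-Aa, the I-A alpha chain, measured 7.19, 11 and 9.33 CPM in S, 8.11, 5.59 and 8.79 in T, and 14.7, 6.74 and 30.1 in A + T. H2-Ab1, the I-A beta chain, measured 4.86, 6.19 and 5.2 CPM in S, 3.47, 4.93 and 4.86 in T, and 9.46, 5.38 and 19.7 in A + T. H2-Eb1, the I-E beta chain, measured 5.14, 6.04 and 6.07 CPM in S, 4.46, 4.28 and 5.52 in T, and 10.4, 5.60 and 16.0 in A + T. For each chain, animals 20 and 22 were above every other heart and animal 21 was within the range of S and T. Cd74, the invariant chain, measured 17.6, 18.1 and 21.8 CPM in S, 13.4, 14.5 and 13.7 in T, and 27.8, 14.9 and 51.3 in A + T. Its T libraries lay below all S and all A + T libraries, although animal 21 was above the highest T library by a small margin. These are bulk heart samples, so that fewer cells of a type and less RNA per cell cannot be told apart.

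The 4 class II genes kept their proportions across hearts whose total differed. Cd74 made up between 41.6% and 51.4% of their summed counts, H2-Aa between 19.1% and 27.6%, H2-Ab1 between 11.8% and 16.8% and H2-Eb1 between 13.7% and 17.2%. Their summed level was 34.8 to 42.4 CPM in S, 29.3 to 32.8 in T, and 62.4, 32.6 and 117 in A + T. Set against the sum of B2m, H2-D1 and H2-K1, the ratio was 0.160 to 0.178 in S, 0.133 to 0.177 in T, and 0.279, 0.161 and 0.352 in A + T, so that class II was raised relative to class I in animals 20 and 22 and not in animal 21. The share of H2-K1 in the 2 heavy chains stayed between 40.4% and 45.8%.

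Over the 9 libraries, which include 3 groups and the library of animal 22, the 6 pairs of class II genes had Pearson correlations of log2(CPM + 0.5) between 0.92 and 0.97, with Spearman values between 0.63 and 0.88. Without animal 22 the Pearson values lay between 0.70 and 0.91 over 8 libraries. The 3 pairs among B2m, H2-D1 and H2-K1 lay between 0.82 and 0.93, and between 0.60 and 0.86 without animal 22. Tap2 ran against these 3 genes, between −0.81 and −0.72, and between −0.82 and −0.72 without animal 22. The correlation of Tap1 with Tap2 was −0.095 over the 9 libraries and 0.33 without animal 22. These values describe libraries that share depth and scaling, and were not tested.

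The first comparison, T vs. S, addresses the hearts labelled as tumour hosts. With all 9 hearts edgeR called no member higher or lower. Of the 9 members, 7 had a log2 fold change below 0, all 4 class II genes among them, with a class II median of −0.30 and a class I median of −0.19 beside a median of −0.0038 over all genes. Cd74 had the largest difference, −0.47 (standard error 0.34, 95% interval −1.22 to 0.29, with the quasi-likelihood test of edgeR giving an adjusted P = 0.361), from 19.2 ± 2.30 CPM in S to 13.8 ± 0.584 in T (SD, n = 3). B2m had −0.25 (standard error 0.15, 95% interval −0.59 to 0.082, adjusted P = 0.260 from edgeR), from 149.6 ± 8.80 to 126 ± 4.22 CPM (SD, n = 3). H2-Aa and H2-Ab1 had −0.30, H2-Eb1 −0.28, H2-K1 −0.21 and H2-D1 −0.19, while Tap1 had 0.11 and Tap2 0.16.

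At the study's thresholds, an unadjusted P-value under 0.05 with a fold change of at least 1.5, edgeR called 0 of 9 members, where 14.2% of the 13364 genes tested were called. After Benjamini-Hochberg adjustment over all genes it called 0, where 21.2% of genes were, and 0 had an unadjusted P-value under 0.05, where 35.4% of genes did. DESeq2, edgeR's likelihood ratio test and limma-voom likewise called 0. B2m and Cd74 had no overlap, with T lower, as had 21.5% of genes. B2m passed the adjustment when A + T animal 22, which is in neither group, was left out of the shared estimate of the spread (adjusted P = 0.0288 from edgeR), with its log2 fold change still −0.24. The 95% intervals of the 4 class II genes, B2m, H2-D1 and H2-K1 took in a 1.5-fold fall, so that with 3 animals a group a missing call does not show equal levels.

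The second comparison, A + T vs. T, sets the hearts labelled as treated hosts against those labelled as hosts. All 4 class II genes rose at the study's thresholds, between 2.27-fold and 2.62-fold, and no class I member did. H2-Ab1 rose by 1.39 on the log2 scale (standard error 0.39, adjusted P = 0.0636 from edgeR), from 4.42 ± 0.826 to 11.5 ± 7.38 CPM (SD, n = 3). H2-Aa had 1.21 (standard error 0.43), H2-Eb1 1.18 (0.31) and Cd74 1.18 (0.34), with adjusted P = 0.127, 0.0515 and 0.0688 from edgeR. B2m had 0.37 (95% interval 0.037 to 0.71), H2-K1 0.34 (−0.089 to 0.77), H2-D1 0.33 (−0.13 to 0.80) and Tap1 0.46 (0.0075 to 0.92), while Tap2 had −0.054 (−0.26 to 0.16). The class II median was 1.20 and the class I median 0.34, beside 0.0098 over all genes.

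At the study's thresholds 4 of 9 members were called, all of them class II genes and all higher, where 8.10% of the genes tested were called, 6.50% higher and 1.61% lower. None passed the adjustment in edgeR's quasi-likelihood test, where 5.88% of genes did, although 6 of the 9 had an unadjusted P-value under 0.05, where 22.4% of genes did. After adjustment DESeq2 called 2 (H2-Ab1 and H2-Eb1), edgeR's likelihood ratio test 3 (H2-Ab1, H2-Eb1 and Cd74) and limma-voom 0. B2m, H2-Ab1, H2-Eb1 and Cd74 had no overlap with A + T higher, as had 12.3% of genes. The comparison shares the libraries labelled T with T vs. S, so the values of both are given side by side and no agreement between them is read.

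**Figure D2:**
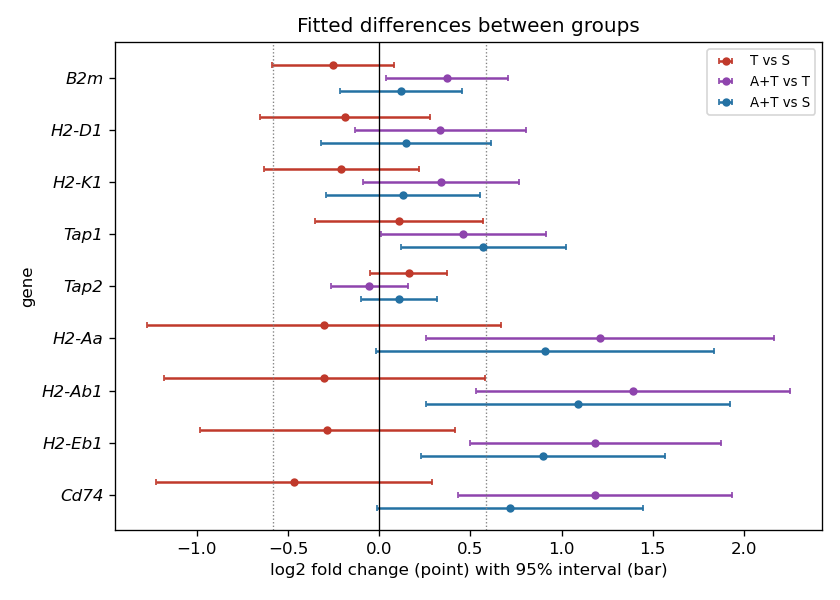
Log2 fold change of each member (x axis) in the 3 comparisons between groups, with 95% intervals from the edgeR fit of 3 animals a group. The dotted lines mark a 1.5-fold change, and in A + T vs. T the points of the 4 class II genes lie between 1.18 and 1.39 while those of the class I genes lie between −0.054 and 0.46.

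In the third comparison, A + T vs. S, which by its labels sets treated hosts against sham, all 9 members had a log2 fold change above 0 and 2 class II genes were called. H2-Ab1 rose by 1.09 (standard error 0.38, adjusted P = 0.101 from edgeR) and H2-Eb1 by 0.90 (standard error 0.30, adjusted P = 0.0930 from edgeR). H2-Aa had 0.91 (95% interval −0.020 to 1.84) and Cd74 0.71 (−0.015 to 1.44). Among class I genes Tap1 had the largest value, 0.57 (0.12 to 1.02), from 6.19 ± 1.25 to 9.19 ± 2.14 CPM (SD, n = 3), just under 1.5-fold. B2m had 0.12 (−0.21 to 0.45), H2-D1 0.15 (−0.32 to 0.61), H2-K1 0.13 (−0.29 to 0.55) and Tap2 0.11 (−0.10 to 0.32). The intervals of B2m, H2-K1 and Tap2 stayed within 1.5-fold in both directions.

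The 2 called of 9 stand beside 8.91% of all genes called at the same thresholds, and 5.82% called higher. After adjustment edgeR called 0 members, where 8.31% of genes passed, while 3 had an unadjusted P-value under 0.05, where 26.1% of genes did. DESeq2 called H2-Ab1 and H2-Eb1 after adjustment, and the likelihood ratio test and limma-voom called 0. No member was free of overlap between A + T and S, where 32.4% of genes were. The class II median was 0.90 and the class I median 0.13, beside 0.0034 over all genes.

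The A + T differences of the class II genes depended on single animals. Without animal 22 their values in A + T vs. T were 0.54 for H2-Aa, 0.76 for H2-Ab1, 0.77 for H2-Eb1 and 0.63 for Cd74, with a median of 0.69 in place of 1.20. H2-Ab1, H2-Eb1 and Cd74 still passed the study's thresholds and H2-Aa did not. With both libraries rich in Scgb1a1 left out, H2-Ab1, H2-Eb1 and Cd74 passed, at 0.86, 0.71 and 0.67, and H2-Aa had 0.36. Without animal 21, which was near the level of S, all 4 passed the adjustment, with values between 1.49 and 1.73 and adjusted P-values from edgeR between 0.00922 and 0.0279. H2-Aa also lost its call without T animal 12, where 3 members were called. With each of the other 6 animals left out, all 4 class II genes passed the thresholds.

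The dependence went further in A + T vs. S. Without animal 22 no member was called and the class II median was 0.35 in place of 0.90, with 0.24 for H2-Aa, 0.46 for H2-Ab1, 0.50 for H2-Eb1 and 0.17 for Cd74. B2m, H2-D1 and H2-K1 changed sign, to −0.11, −0.15 and −0.087. Without animal 21, all 4 class II genes were called and passed the adjustment, with values between 1.06 and 1.43. Tap1 stayed above 0 in each fit that left out an animal, between 0.42 without animal 22 and 0.74 without animal 20. In the last of these it passed the adjustment (adjusted P = 0.0456 from edgeR).

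**Figure D3:**
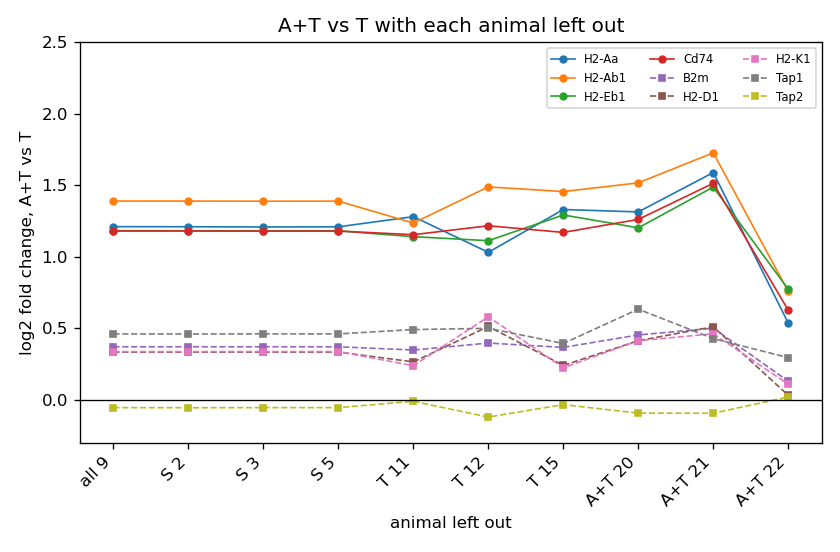
Log2 fold change of the 9 members in A + T vs. T (y axis) with all 9 hearts and with each animal left out in turn (x axis). The class II genes, drawn as circles on solid lines, lie between 1.03 and 1.73 except without animal 22, where they lie between 0.54 and 0.77.

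Markers of other cells were read beside these genes. Itgax encodes the dendritic cell integrin CD11c. It had 0, 3 and 11 counts in S, 3, 6 and 5 in T, and 50, 7 and 98 in A + T. Its counts were high in the same A + T hearts, 20 and 22, as class II. Itgax was not among the genes that passed the filter, so this likeness was not tested. Of 16 dendritic cell markers 10 were listed and 7 passed the filter. After adjustment, 2 of the 7 were lower in T vs. S (1 without animal 5), beside 11% of all genes. In A + T vs. T 1 was higher, beside 3.09%. None passed in A + T vs. S, where 1 had an unadjusted P-value under 0.05 in edgeR, as had 26.1% of all genes. Of the 7 log2 fold changes, 6 were above 0 in A + T vs. T, while that of Cd86 was −0.47. In A + T vs. S, 4 were above 0 and 3 below, namely Cd83 (−0.46), Cd40 (−0.42) and Irf4 (−0.13). The middle value of the 7 was 0.076 in that comparison. Cd207, which encodes langerin, measured 1.44, 4.72 and 3.90 CPM in S, 0.867, 0.297 and 0.187 in T, and 8.78, 6.46 and 9.42 in A + T, and was high in animal 21 as well. It fell by 2.80 in T vs. S (adjusted P = 0.00521 from edgeR) and rose by 4.09 in A + T vs. T (adjusted P = 0.00356 from edgeR). The summed level of the list was 20.2 to 24.3 CPM in S, 15 to 15.9 in T and 24.9 to 32.9 in A + T. The defining markers Xcr1 and Clec9a were among the 16 and not among the 7 tested.

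Of 18 macrophage and monocyte markers, all tested, 8 rose in A + T vs. T after adjustment and none fell, beside 3.09% of all genes higher. The number was 1 without T animal 11, 3 without animal 20, 4 without animal 3 and 5 without animals 5 or 15. Of the 18, 10 rose in A + T vs. S, beside 4.67% of all genes higher. In T vs. S 3 rose, beside 10.3% of all genes higher, and 0 rose without animals 2, 3, 5, 12 or 15. Their summed level was 315 to 344 CPM in S, 336 to 397 in T and 492 to 539 in A + T. Ptprc, the leukocyte marker CD45, measured 15.2, 11.4 and 25.3 CPM in A + T against 5.36 to 8.97 in the other groups. Ccr2, the receptor of recruited monocytes, measured 7.66, 3.01 and 10.7 CPM in A + T against 0.719 to 2.61 in the others, and was highest in animals 22 and 20. Adgre1, the macrophage marker F4/80, had another order in A + T, with 30.4, 29.6 and 16.0 CPM, so that animal 22 was the lowest. The part of these cells in the class II result was not tested.

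Among 15 markers of lymphocytes and NK cells, Cd4 alone was listed, with 4 to 16 counts in a library, and Cd3e, also among the 15, was not tested. Of 9 lung and airway markers 4 were listed, with summed levels of 0.868 to 2.74 CPM in S, 2.04 to 104 in T and 1.51 to 1451 in A + T, and their part in the high values of animal 22 was not tested. Scgb3a1, the 1 of these tested, was higher in T vs. S after adjustment, with 394 counts in T animal 12 and 18 or fewer in the other hearts, and Cd4 passed in no comparison. Animal 20 held 9 counts of Sftpb and 0 of Scgb1a1. Its summed class II level of 62.4 CPM was above that of all S and T hearts, and the source of this level was not tested. Of 12 endothelial markers, 7 were lower in T vs. S after adjustment, beside 11% of all genes, 1 was higher in A + T vs. T, beside 3.09%, and 1 was lower in A + T vs. S, beside 3.64% of all genes lower, with sums of 1729.6 to 1999.8 CPM in S, 1161 to 1479 in T and 1426 to 1849 in A + T. The gene higher in A + T vs. T was Cdh5, a junction gene, whose call was kept only without animal 20. The number that was lower in A + T vs. S ran from 0, without animals 2 or 3, to 4, without animal 22. Pecam1, an endothelial junction gene, measured 181 to 210.3 CPM in S, 131 to 171 in T and 126 to 202 in A + T. All 9 fibroblast markers were lower in T vs. S after adjustment, beside 11% of all genes, and 7 were higher in A + T vs. T, beside 3.09%. Without T animal 11, 0 of them passed in A + T vs. T, and without T animal 12, 4 did. In A + T vs. S 0 passed, with 1 at an unadjusted P-value under 0.05 in edgeR, where 26.1% of all genes were. Without animal 20, 4 of them were lower. Of 11 heart muscle markers, 2 were higher and 1 lower in T vs. S, beside 10.3% and 11% of all genes, with 0 higher without animals 2, 3, 5, 11, 15 or 21. In each of the other 2 comparisons 0 passed, with 1 at an unadjusted P-value under 0.05 in edgeR. Of all genes, 22.4% were in A + T vs. T and 26.1% in A + T vs. S.

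Of 13 other genes of the class I route, none rose after adjustment in any of the 3 comparisons with all 9 hearts. In T vs. S, Sec61a1, a subunit of the channel that lets peptides and proteins cross the membrane, was lower (−0.34, adjusted P = 0.0275 from edgeR), beside 11% of all genes lower. Erap1, which trims peptides in the endoplasmic reticulum, was lower in A + T vs. T (−0.40, adjusted P = 0.0386 from edgeR), beside 2.79% of all genes lower. The first call was lost without animals 2, 3, 5, 11 or 12, and the second whichever animal was left out. Without animal 22, 2 genes rose and 1 fell in T vs. S. None passed in A + T vs. S, although 7 had an unadjusted P-value under 0.05 in edgeR, where 26.1% of all genes did. Of the 13, 6 had one in A + T vs. T, where 22.4% of all genes did. The interferon-induced proteasome subunits Psmb8 and Psmb9 had log2 fold changes of −0.20 and −0.48 in T vs. S, 0.46 and 0.73 in A + T vs. T, and 0.27 and 0.25 in A + T vs. S, and none of these passed the adjustment. At the study's thresholds Psmb9 was called in A + T vs. T, higher by 1.66-fold. Psmb9 measured 3.92, 2.94 and 4.12 CPM in S, 2.66, 2.14 and 3.09 in T, and 4.02, 3.23 and 5.73 in A + T, with no overlap between T and A + T. Nlrc5, the class I coactivator, measured 1.33 to 2.49 CPM in S, 2.17 to 3.83 in T and 2.22 to 2.94 in A + T, and had 0.55 in T vs. S (adjusted P = 0.215 from edgeR).

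Of 25 nonclassical class I and class I-like genes, 13 were listed and 12 tested. Hfe, whose product regulates iron uptake rather than presenting peptides, was the 1 that passed, with a rise of 0.77 in T vs. S (standard error 0.15, adjusted P = 0.00512 from edgeR), from 41.7 ± 6.24 to 71.3 ± 10.2 CPM (SD, n = 3). In A + T vs. T none passed, while 5 had an unadjusted P-value under 0.05 in edgeR, where 22.4% of all genes did. At the study's thresholds 4 of the 12 were called in that comparison, all higher, beside 6.50% of all genes called higher. These were H2-Q1 (1.01), which shares sequence with H2-D1, H2-K2 (0.95), H2-M3 (0.80) and H2-Q4 (0.62). The median was 0.41 with 10 of 12 above 0, and 0.33 without animal 22. In A + T vs. S none passed, with 3 of the 12 at an unadjusted P-value under 0.05 in edgeR, where 26.1% of all genes were. The median was 0.33 in that comparison, and 0.18 without animal 22.

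Of 22 further genes of the class II route, 16 were listed and 14 tested. After adjustment 1 of them, a protease gene, rose in each A + T comparison. Of all genes, 3.09% rose in A + T vs. T and 4.67% in A + T vs. S. At the study's thresholds 3 of the 14 were called higher in A + T vs. T (Ctss, H2-DMa and Ifi30), beside 6.50% of all genes. In A + T vs. S 3 were called higher (Ctss, Ifi30 and March1), beside 5.82%. Ctss, which encodes cathepsin S and cuts the invariant chain free, measured 15.5, 18.2 and 18.9 CPM in S, 18.8, 24.5 and 18.6 in T, and 63.4, 42.2 and 48.9 in A + T. Every A + T heart, animal 21 included, was above every other heart. Ctss rose by 1.31 in A + T vs. T (standard error 0.16, adjusted P = 0.00334 from edgeR) and by 1.56 in A + T vs. S (standard error 0.16, adjusted P = 0.00136 from edgeR), and both calls were kept whichever of the 9 animals was left out. Without animal 22 the values were 1.35 and 1.60. Ctss was the only gene of this list to rise after adjustment in either of these comparisons with all 9 hearts.

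In T vs. S, 4 of the 14 genes of the class II route rose and 1 fell, beside 10.3% of all genes higher and 11% lower. March1, a ligase that removes class II molecules from the surface, had the largest rise, 0.97 (adjusted P = 0.0332 from edgeR, kept for 4 of the 9 animals left out in turn), and Nfya, a subunit of the factor that binds the Y box, was the one that fell, by 0.36 (adjusted P = 0.0390 from edgeR, kept for 3 of the 9 animals left out in turn). When animals were left out in turn, the number of genes past the adjustment lay between 2, without animals 2, 5 or 12, and 6, without A + T animal 22. Rfxank, a subunit of the X box factor, measured 22.1 to 23.8 CPM in S, 41.1 to 42.0 in T and 25.5 to 34.7 in A + T. It rose by 0.86 in T vs. S (adjusted P = 0.000815 from edgeR), a call kept whichever animal was left out. It was the 1 gene of this list to fall in A + T vs. T, by 0.52 (adjusted P = 0.0265 from edgeR), a call kept in 4 of the 9 fits. H2-DMa, part of the molecule that loads peptides onto class II, had −0.14 in T vs. S, 0.83 in A + T vs. T and 0.69 in A + T vs. S, with adjusted P = 0.825, 0.212 and 0.247 from edgeR. Its partner H2-DMb1 had 16, 6 and 10 counts in S, 1, 6 and 5 in T, and 20, 7 and 31 in A + T. Ciita, the coactivator gene, had 15, 3 and 5 counts in S, 5, 11 and 3 in T, and 10, 4 and 22 in A + T. Both were removed by the filter, so that a difference in these genes was not detectable at this depth, and animal 22 held their highest counts.

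Genes of interferon signalling and its targets moved in both directions. Of 16 signalling genes tested, 5 rose and 1 fell in T vs. S, beside 10.3% of all genes higher and 11% lower. There was 1 call in each direction in A + T vs. T, beside 3.09% and 2.79%, which is near the share of all genes, and 4 rose in A + T vs. S, beside 4.67%. Irf1, a transcription factor that interferon gamma induces, measured 15.7, 17 and 13.5 CPM in S, 9.97, 13.8 and 10.8 in T, and 17.2, 17.4 and 22.8 in A + T. The A + T hearts lay above all others. Irf1 rose by 0.73 in A + T vs. T (adjusted P = 0.0275 from edgeR), a call lost without T animals 11 or 15, and had −0.42 in T vs. S (adjusted P = 0.0871 from edgeR). Socs3, an inhibitor of cytokine signalling, had the largest rise in T vs. S, 1.65 (adjusted P = 0.00296 from edgeR), and in A + T vs. S, 1.21 (adjusted P = 0.0292 from edgeR), and Ifngr2, a chain of the interferon gamma receptor, was the 1 that fell in T vs. S, by 0.45 (adjusted P = 0.00780 from edgeR). The count in A + T vs. S was 0 without animal 2, 1 without animals 3 or 5 and 2 without animal 21.

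Of 29 interferon targets tested, 10 rose and 4 fell in T vs. S, beside 10.3% of all genes higher and 11% lower. Of the same 29, 5 rose and 1 fell in A + T vs. T, beside 3.09% and 2.79%, and without animal 22 the numbers were 4 and 4 and the median 0.21 in place of 0.45. There were 4 that rose in A + T vs. S, beside 4.67%. Gbp6, a guanylate-binding protein, had the largest rise in T vs. S and the only fall in A + T vs. T. It measured 23.1, 22.4 and 27.0 CPM in S, 94.3, 99.7 and 104 in T, and 53.0, 42.6 and 52.7 in A + T, with 2.04 in T vs. S (standard error 0.11, adjusted P = 1.4e-05 from edgeR) and −1.01 in A + T vs. T (standard error 0.10, adjusted P = 0.00248 from edgeR). Cxcl9, a chemokine induced by interferon gamma, had the largest fall in T vs. S and the largest rise in A + T vs. T. It measured 3.32, 5.53 and 3.47 CPM in S, 0.929, 0.594 and 1.03 in T, and 1.98, 2.08 and 2.65 in A + T, with −2.29 (standard error 0.31, adjusted P = 0.000876 from edgeR) and 1.41 (standard error 0.32, adjusted P = 0.0311 from edgeR). The second of these calls was kept for 4 of the 9 animals left out in turn. Mx1, an antiviral protein, had the largest rise in A + T vs. S, 2.16 (adjusted P = 0.00923 from edgeR), from 3 to 9 counts in S to 20 to 37 in A + T. Of the targets in A + T vs. T, 1 passed without T animal 11, and in A + T vs. S 2 passed without animal 2 of S and 9 without animal 20 of A + T.

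**Figure D4:**
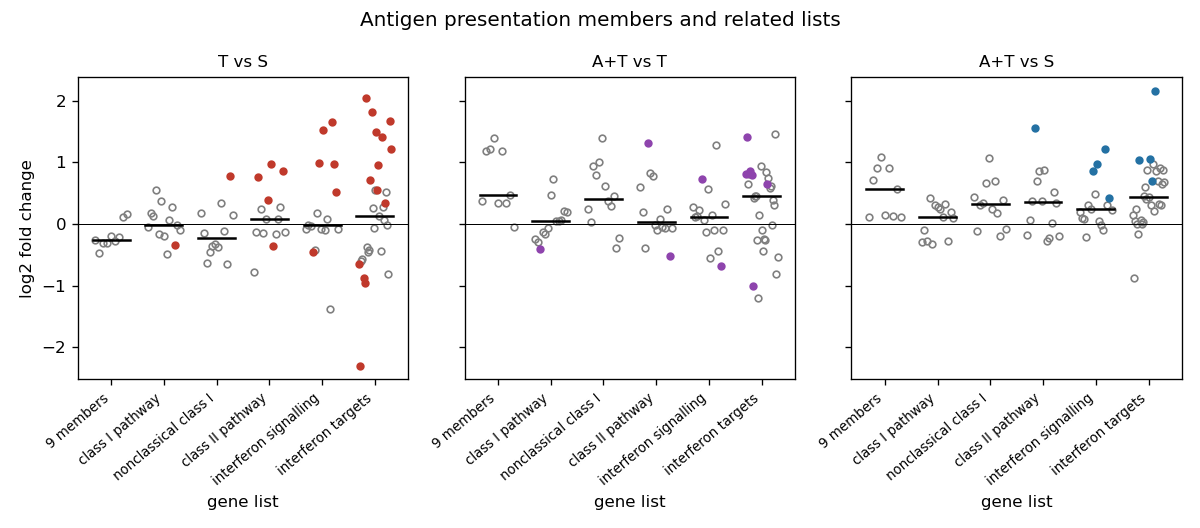
Log2 fold change (y axis) of the 9 members and of 5 related gene lists (x axis), with a panel for each comparison. Filled points passed an adjusted P-value under 0.05 from edgeR, open points did not, and the line is the median, which for the members is −0.25, 0.46 and 0.57.

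The genes whose pattern over the 9 libraries was most like that of the members were ranked among 13174 genes by the Pearson correlation with the mean z-score of each class. For the 4 class II genes they were Ppib (0.97), Aprt (0.96), H2afv (0.95), Sft2d2 (0.95) and Pcolce2 (0.94). Without animal 22 the values were between 0.84 and 0.93 over 8 libraries. They are given as a description of libraries that share depth and scaling. Ppib, a prolyl isomerase of the endoplasmic reticulum, measured 49.5 to 55.9 CPM in S and T and 58.3, 50.8 and 69.0 in A + T. For the 5 class I genes they were Samhd1 (0.98), Lyz1 (0.97), Emb (0.97), Inmt (0.96) and Hpgd (0.96), and between 0.67 and 0.85 without animal 22. The class I mean includes Tap2, which ran against B2m, H2-D1 and H2-K1 (between −0.81 and −0.72). It is therefore not a pattern that all 5 genes share. Inmt, a methyltransferase gene, measured 6.55 to 18.0 CPM in all hearts but that of animal 22, where it was 111, and Lyz1, a lysozyme gene, had 1042 counts in that heart and 34 or fewer in any other.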

How the data were processed

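Heart RNA of 9 mice was sequenced as paired 75-base reads after mRNA enrichment, from RNA with an integrity number of at least 7, in a single round per the labels. The authors mapped the reads to mm10 with STAR and assigned uniquely mapped pairs with a mapping quality of at least 10 to refGene genes by strand with featureCounts, and the deposited raw counts were used for all tests. The deposited log2 values, which the authors scaled to library size and, from the values, to gene length, were used for levels between genes and 1 alternative. The versions of STAR and featureCounts are not given in the sources used here. Lines with no gene name (3443) held no values and were left out.

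The study's filter, which drops a gene when over 4 libraries have less than 0.5 CPM, removed 526 of 13890 genes and left 13364. Counts were fitted by group with TMM normalisation and edgeR's quasi-likelihood test (edgeR 4.0.16, R 4.3.3) over all 9 libraries, with P-values adjusted by Benjamini-Hochberg over all genes tested. A member was called at an unadjusted P-value under 0.05 with a fold change of at least 1.5, as in the study's methods, and separately at an adjusted P-value under 0.05. Values are mean ± SD, and CPM is scaled by TMM. An exact permutation test of 3 animals against 3 cannot give a P-value under 0.1 and was not used. The floors of 3 counts cover counting error only. DESeq2 1.42.0, limma 3.58.1 and other normalisations, filters and left-out animals were the alternatives. Replicate libraries differed by more than sampling noise, the lowest chi-square for each gene compared being 7.63.

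The genes named from each list were those with the largest rise and fall past adjustment, with known regulators and partners, the 5 genes most like each class and marker genes of other cells. Itgax, Cd207, Ccr2, Scgb1a1, Scgb3a1, Sftpb, Ager, Cd4, Cdh5, H2-Q1, H2-Q4, H2-M3, H2-K2 and Ifi30 were named after their values had been seen, as were Rfxank in T vs. S and March1 in A + T vs. S. The members and lists were chosen with earlier results of these data known. A gene that this rule would name is not reported here.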

Additional observations from a re-analysis of the deposited data

How the results depend on the processing

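Each alternative gave a log2 fold change for each member and comparison. Of these values, 484 kept their direction and their side of the threshold, 13 passed it newly, 8 lost it and 8 changed sign. The counts of the gene lists are not part of this tally. In T vs. S no alternative called a member at the study's thresholds. After adjustment 2 members passed when only the groups compared were fitted (B2m and Cd74), 3 with both libraries rich in Scgb1a1 left out, an alternative chosen after seeing the data (B2m, H2-D1 and H2-K1), and 0 to 1 with each animal left out. In A + T vs. T, 3 to 5 members were called with each animal left out. After adjustment 2 passed with DESeq2, 3 with the likelihood ratio test, 1 with upper-quartile normalisation, 3 with library size only, 1 with at least 10 counts in every library, 1 with both libraries left out (H2-K1), and 0 to 4 with each animal left out. In A + T vs. S, 4 members were called with the likelihood ratio test, 5 with upper-quartile normalisation, 4 with library size only, 0 with both libraries left out, and 0 to 4 with each animal left out. After adjustment 2 passed with DESeq2 and 0 to 4 with each animal left out.

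Signs changed when an animal was left out for Tap1 in T vs. S (−0.043 without S animal 3, up to 0.26), for Tap2 in A + T vs. T (−0.12 to 0.021, the last without animal 22), and in A + T vs. S for B2m (−0.11 to 0.26), H2-D1 (−0.15 to 0.33) and H2-K1 (−0.087 to 0.26), each negative without animal 22 and, at −0.11, −0.15 and −0.087, with both libraries left out. Over all genes, the number past adjustment in A + T vs. T was 786, against 1200 with DESeq2, 1195 with the likelihood ratio test, 438 with library size only, 217 with only the groups compared, and 130 to 1006 with each animal left out. With library size only it was 1637 in place of 2837 in T vs. S and 555 in place of 1110 in A + T vs. S, where leaving out an animal gave 269 to 1086. The causes were not tested. No paired analysis was possible because the labels number animals differently in each group. With 3 animals a group, the class II result is limited by the spread within A + T.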
